A study of Mus musculus with 8 samples.

Results

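The 10 T cell checkpoint and exhaustion genes Pdcd1, Cd274, Havcr2, Lag3, Tigit, Ctla4, Tox, Tcf7, Slamf6 and Entpd1 were read by gene symbol from a table of 24421 genes measured by bulk RNA-seq in 8 whole MC38 tumors. All 10 were also among the 19823 genes of the authors' normalized table. MC38 is a mouse colon adenocarcinoma line, and 250000 of its cells were implanted in each female B6 Kaede mouse at an age of 9 weeks. Kaede mice carry a fluorescent protein that violet light turns from green to red. On day 10, at a tumor diameter of about 5 mm, the 4 photoconverted tumors received violet light of 405 nm for 3 min, the 4 control tumors received none, and all 8 were harvested after another 5 h. All tumors of both groups thus grew in Kaede hosts from 1 implanted line, and the design addressed whether the light exposure itself altered the tumor.

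Inhibitory receptors are held at low levels on resting T cells and are induced when the T cell receptor signals. In tumors, where antigen persists, T cells that co-express several of them lose effector function in a state called exhaustion, which is set by the transcription factor TOX. A TCF-1-positive, Slamf6-positive subset retains self-renewal. Whole tumor RNA mixes these T cells with tumor cells, myeloid cells and stroma, so that fewer cells of a type and less RNA per cell cannot be told apart.

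The sequences upstream of 3 of these genes are shown because Ctla4 had the largest fold change of the 10 between the groups, and because Pdcd1 and its ligand Cd274 had nearly the same order of levels over the tumors. RefSeq windows (GRCm38.p6) were found for 8 of the 10 genes, with none for Tox and Lag3. Each line gives the 250 bases before the RefSeq start in gene orientation, and capitals mark a motif match described after the sequences:
Ctla4 (chr1:60908775-60909024, plus strand): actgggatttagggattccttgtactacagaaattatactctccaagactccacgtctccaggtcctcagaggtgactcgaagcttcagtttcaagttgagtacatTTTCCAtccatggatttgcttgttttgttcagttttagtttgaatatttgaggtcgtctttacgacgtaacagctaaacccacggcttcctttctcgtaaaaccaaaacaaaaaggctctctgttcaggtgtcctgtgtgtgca
Pdcd1 (chr1:94052554-94052803, minus strand): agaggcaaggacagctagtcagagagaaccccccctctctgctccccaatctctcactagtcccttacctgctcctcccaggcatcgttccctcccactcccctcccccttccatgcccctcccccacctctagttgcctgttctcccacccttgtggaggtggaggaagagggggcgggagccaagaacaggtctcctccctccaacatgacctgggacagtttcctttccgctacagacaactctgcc
Cd274 (chr19:29367188-29367437, plus strand): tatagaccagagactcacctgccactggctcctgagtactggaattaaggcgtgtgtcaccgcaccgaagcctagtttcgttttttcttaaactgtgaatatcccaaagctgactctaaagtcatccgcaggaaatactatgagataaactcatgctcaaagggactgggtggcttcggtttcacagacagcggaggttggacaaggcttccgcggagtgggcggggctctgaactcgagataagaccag
The capitals in Ctla4 spell the reverse complement of the NFAT core TGGAAA, beginning 144 bases before the start. NFAT is the calcineurin-dependent factor activated by T cell receptor signaling. Among the other motifs searched, on both strands, were an IRF element (GAAANNGAAA) and an AP-1 site (TGANTCA). Neither Pdcd1 nor Cd274 held the letters of these 3 motifs in this window, and in Havcr2 an AP-1 match began 200 bases before the start. Matches of this kind were common, since 18.6% of 32536 windows of the same length held the NFAT core, 6.73% the AP-1 letters and 2.98% the IRF letters.

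Library depth and composition differed among the tumors of both groups. Total counts ranged from 16735293 to 35844417 in photoconverted and from 12576615 to 29439901 in control tumors. Rn45s, the 45S precursor of ribosomal RNA, took 21.9%, 35.7% and 23.2% of the counts in photoconverted tumor 4, control tumor 2 and control tumor 4, and at most 9.65% in the other 5. These 3 libraries, 1 photoconverted and 2 control, were also the shallowest. Levels are given as CPM, counts scaled to a common library size by TMM normalization, and each value is 1 tumor. Beside the 10 genes, 14 T cell receptor and lineage genes were read, which cannot show what cells carry the 10. All 14 were detected and tested, and their summed CPM was between 28.4 and 64.2 in photoconverted and between 16.7 and 60.4 in control tumors. Of these, Cd3e, a chain of the T cell receptor complex used here as the measure of T cell RNA, was at 2.60, 1.61, 3.23 and 0.957 CPM in the photoconverted tumors, in the order of their replicate numbers, and at 2.31, 3.00, 3.98 and 0.549 CPM in the controls. Behind the lowest 2 of these values were 14 counts in photoconverted tumor 4 and 9 counts in control tumor 4.

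None of the 10 genes passed the test between photoconverted and control tumors. Tested with edgeR's quasi-likelihood test and Benjamini-Hochberg adjustment over all 14468 genes, 0 of the 10 were called, as against 0.0% of all genes. At an unadjusted p under 0.05 the count was also 0 of 10, where 2.23% of all genes (322) had such a p. The log2 fold change was above 0 for 7 genes and below 0 for 3, with a median of 0.22 against -0.01 over all genes tested. No gene had CPM values that kept the groups apart, which 1.33% of all genes did. Every adjusted p of the 10 in edgeR was 0.999, and DESeq2 and limma also called 0 of them. Photoconverted tumor 4 weighed on this count, since without it 3 of the 10, Cd274, Pdcd1 and Ctla4, had an unadjusted p under 0.05 in edgeR, with log2 fold changes of 0.81, 0.81 and 1.43, where 5.26% of all genes had. Without control tumor 3 the 1 such gene was Ctla4, against 2.33% of all genes. With the Rn45s share as a covariate it was again Ctla4, while 1010 of 14468 genes had such a p. There its log2 fold change was 1.15 with a standard error of 0.29 (unadjusted p = 0.00344 and adjusted p = 0.633 in edgeR). In DESeq2's Wald test Ctla4 was also the 1 such gene (unadjusted p = 0.0363), while 569 of 20558 genes had such a p. The plot of CPM by tumor shows this overlap for each gene.

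**Figure D1:**
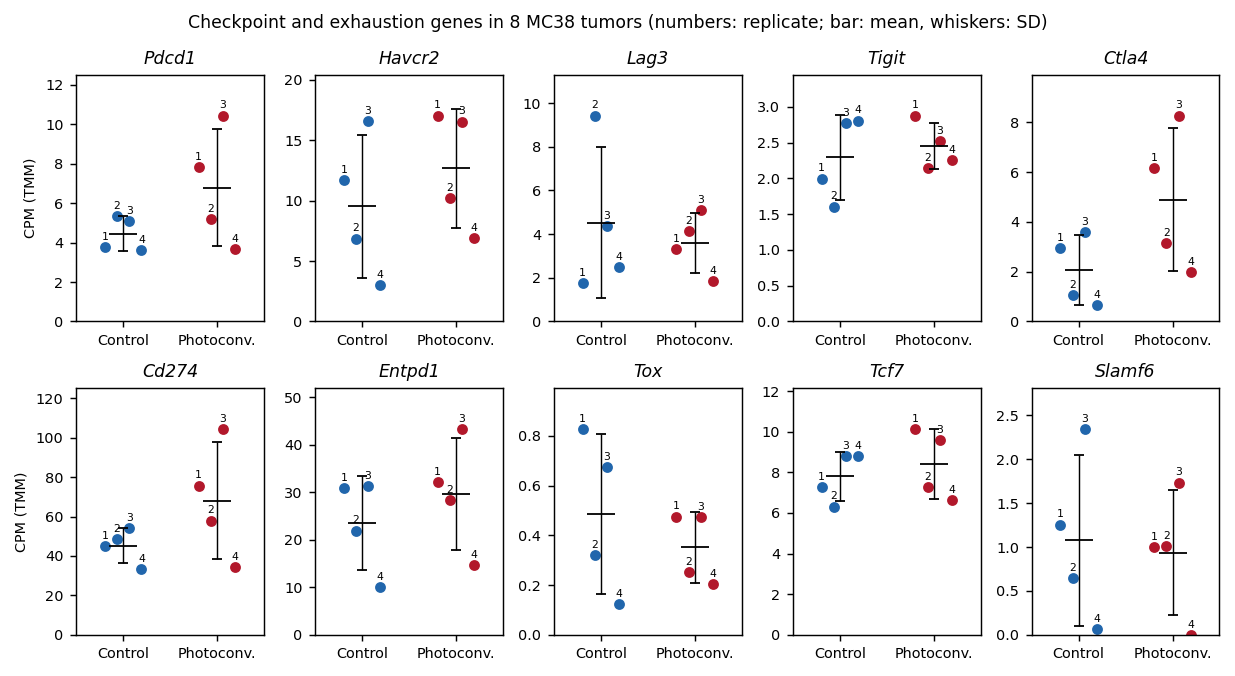
CPM of each of the 10 genes in 4 control (blue) and 4 photoconverted (red) tumors, on a linear axis per gene that starts at 0, with replicate numbers beside the points and the mean ± SD in black. The groups overlap in all 10 panels, and photoconverted tumor 4 is the lowest of its group in 9 of them.

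Among the inhibitory receptors, Ctla4 had the largest difference. Ctla4 encodes the receptor that competes with CD28 for the ligands CD80 and CD86, and it is constitutively present on regulatory T cells. Its CPM, by replicate number, was 6.18, 3.16, 8.27 and 1.98 with photoconversion and 2.94, 1.07, 3.59 and 0.671 in the controls. In each same-numbered pair the photoconverted tumor was higher, but photoconverted tumors 2 and 4 lay below control tumor 3, so the groups overlapped. The means were 4.90 ± 2.86 and 2.07 ± 1.42 CPM (SD, n = 4 each), a log2 fold change of 1.19 with a standard error of 0.58 in edgeR (unadjusted p = 0.0684, adjusted p = 0.999). A two-sided exact permutation test of log2 CPM over the 70 arrangements of the tumors gave p = 0.143, where the smallest p possible is 0.0286. Under a replicate block, which takes same-numbered tumors as pairs, the Ctla4 difference was 1.29 (log2) with a standard error of 0.21. Its unadjusted p of 0.00028 ranked 9 of all genes tested in edgeR, with an adjusted p of 0.396. The labels give only the numbers, and the pairing was chosen from correlations in these same data.

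Pdcd1 encodes PD-1, the receptor for PD-L1 and PD-L2. The 4 photoconverted tumors had Pdcd1 levels of 7.83, 5.18, 10.4 and 3.69 CPM and the 4 controls levels of 3.77, 5.35, 5.08 and 3.60 CPM. Photoconverted tumors 1 and 3 lay above all controls, whereas photoconverted tumors 2 and 4 lay among them. The means of 6.79 ± 2.98 and 4.45 ± 0.894 CPM (SD, n = 4 each) differed by a log2 fold change of 0.62 with a standard error of 0.32 in edgeR (unadjusted p = 0.0859), and the exact permutation test gave p = 0.257. Havcr2, which encodes TIM-3 and is also expressed by dendritic cells and macrophages, was at 17.0, 10.2, 16.5 and 6.90 CPM in photoconverted tumors and at 11.7, 6.85, 16.6 and 2.99 CPM in control tumors. Its lowest value was in control tumor 4 and its next lowest in control tumor 2 and photoconverted tumor 4, the 3 libraries with the high Rn45s shares. The log2 fold change was 0.40 with a standard error of 0.48, and the exact permutation test gave p = 0.429.

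Lag3, an MHC class II binding receptor, was at 3.33, 4.14, 5.08 and 1.85 CPM in photoconverted tumors and at 1.74, 9.42, 4.37 and 2.50 CPM in control tumors. Control tumor 2 held the highest value of the 8, and the log2 fold change of -0.27 (standard error 0.52) became 0.33 without it. Tigit, which competes with CD226 for the ligand CD155, varied least among the receptors, at 2.88, 2.15, 2.52 and 2.26 CPM in photoconverted tumors and 2.00, 1.61, 2.77 and 2.81 CPM in control tumors. Both groups of Tigit values lay in the same range, and the log2 fold change of 0.08 was smaller than its standard error of 0.25. Exact permutation tests gave p = 0.857 for Lag3 and p = 0.571 for Tigit.

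The ligand and the ectoenzyme also overlapped between the groups. Cd274 encodes PD-L1, which interferon gamma induces on tumor and myeloid cells. Cd274 levels were 75.8, 57.9, 104.5 and 34.2 CPM with photoconversion and 45.1, 48.4, 54.3 and 33.4 CPM without it. Photoconverted tumors 1 to 3 exceeded every control, and photoconverted tumor 4 exceeded only control tumor 4. The means were 68.1 ± 29.6 and 45.3 ± 8.79 CPM (SD, n = 4 each), with a log2 fold change of 0.59, a standard error of 0.30 and an unadjusted p of 0.0842 in edgeR, and the exact permutation test gave p = 0.229. Without photoconverted tumor 4, a choice made after the values were seen, Cd274 was the 1 gene of the 10 whose groups did not overlap, which 6.63% of all genes then did. Entpd1 encodes CD39, an ectoenzyme that hydrolyses extracellular ATP and ADP and is found on regulatory and exhausted T cells and on endothelium. It was at 32.2, 28.3, 43.3 and 14.7 CPM in photoconverted tumors and at 30.9, 21.9, 31.2 and 10.1 CPM in control tumors. Each photoconverted tumor was higher than the control of the same number, and the means of 29.6 ± 11.8 and 23.5 ± 9.96 CPM (SD, n = 4 each) differed by less than the spread within either group (log2 fold change 0.33, standard error 0.39, exact permutation p = 0.543).

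The regulators and the stem-like marker were near or below 0 in their differences. Tcf7, which encodes TCF-1 of memory and stem-like T cells, measured 10.1, 7.26, 9.57 and 6.63 CPM with photoconversion and 7.28, 6.32, 8.82 and 8.79 CPM without it. Its highest value was only 1.60 times its lowest, and the log2 fold change was 0.11 with a standard error of 0.20 (exact permutation p = 0.629). Tox was counted 19, 8, 12 and 3 times in photoconverted tumors and 29, 3, 19 and 2 times in control tumors, or a mean of 0.351 against 0.487 CPM. Slamf6, a homophilic receptor of the SLAM family, was counted 40, 32, 44 and 0 times in photoconverted tumors and 44, 6, 66 and 1 times in control tumors. A count of 0 in photoconverted tumor 4 allows up to 3 counts, or 0.205 CPM, by counting error alone, so Slamf6 at the level of the other photoconverted tumors would have been seen there. The log2 fold changes were -0.54 for Tox (standard error 0.53) and -0.23 for Slamf6 (standard error 0.88), and differences within these errors were not detectable at this depth.

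With same-numbered tumors paired through a replicate block, 4 of the 10 genes had an unadjusted p under 0.05 in edgeR, against 6.01% of all genes (869). They were Ctla4, Cd274, Entpd1 and Havcr2, all higher in photoconverted tumors. These p-values rest on an assumed pairing. The labels give only the numbers, and some differently numbered tumors correlated as strongly as same-numbered ones. The blocked log2 fold changes were 0.51 for Cd274 (standard error 0.16, unadjusted p = 0.0118), 0.35 for Entpd1 (standard error 0.12, unadjusted p = 0.0205) and 0.54 for Havcr2 (standard error 0.20, unadjusted p = 0.0258) in edgeR. For these 4 genes the standard errors fell, as the plot of log2 fold changes shows. Their fold changes moved little, most for Havcr2, from 0.40 to 0.54. Adjusted over all genes, the p-values of Cd274, Entpd1 and Havcr2 were 0.716, 0.761 and 0.775, and 0 of the 10 were called. In a fit of only the 5 tumors whose Rn45s share was below 10%, 3 photoconverted and 2 control, the 2 genes with an unadjusted p under 0.05 in edgeR were Cd274 and Pdcd1, against 10.5% of all genes, at log2 fold changes of 0.67 (adjusted p = 0.391) and 0.82 (adjusted p = 0.427).

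**Figure D2:**
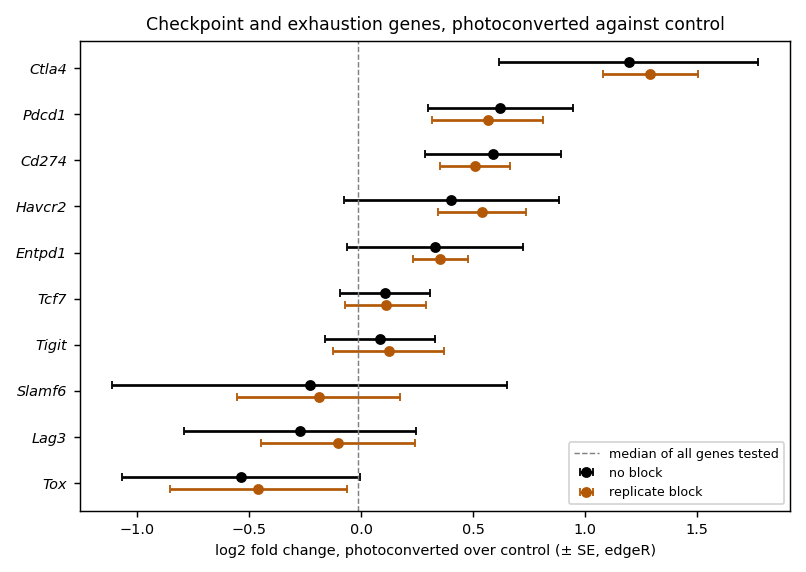
Log2 fold change of photoconverted over control tumors for the 10 genes in edgeR, with the standard error as whiskers, without a block (black) and with the replicate number as a block (orange). The dashed line marks the median of all genes tested, -0.01, and Ctla4 is the farthest from it at 1.19 and 1.29.

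Tumors of the same group differed from each other in a pattern that most of the 10 genes shared. Photoconverted tumor 4 was the lowest photoconverted tumor for 9 of the 10 genes, all but Tigit, where 40.6% of all genes had their lowest photoconverted value in it. Control tumor 4 was the lowest control for 7 of the 10, all but Lag3, Tigit and Tcf7, against 24.6% of all genes. Photoconverted tumor 3 was the highest of its group for 6 of the 10, against 27.2% of all genes. The standard deviation of log2 CPM over the 8 tumors was 1.77 for Slamf6, 1.16 for Ctla4 and 0.86 for Havcr2, and only 0.25 for Tcf7 and 0.28 for Tigit, beside a median of 0.30 over all genes tested and 0.92 for Cd3e. The map of deviations by tumor shows low values of most of the 10 genes and of Cd3e, Cd8a and Ptprc in photoconverted tumor 4 and control tumor 4.

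**Figure D3:**
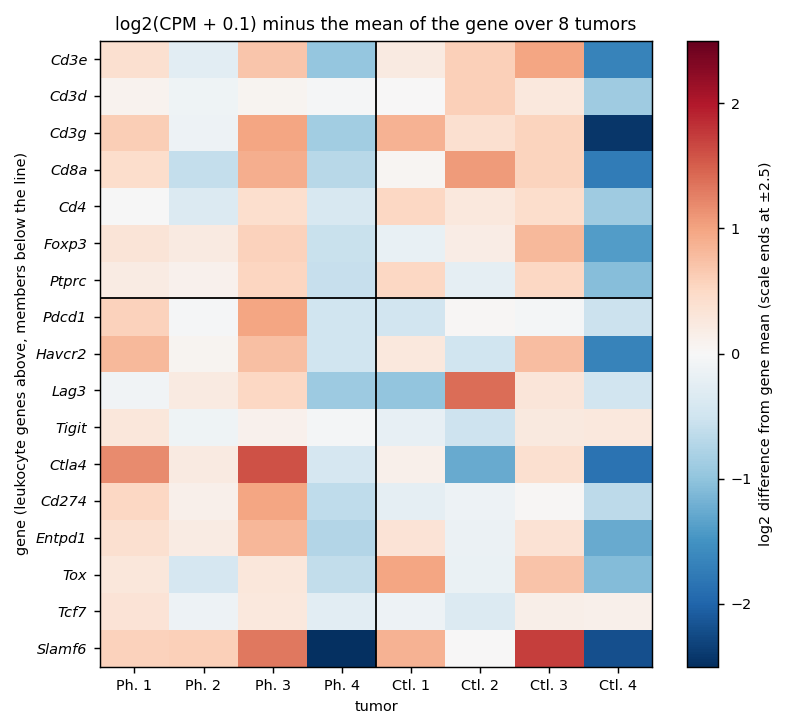
Log2 of CPM plus 0.1, minus the mean of each gene over the 8 tumors, for 7 leukocyte genes (above the horizontal line) and the 10 checkpoint and exhaustion genes (below it). Photoconverted (Ph.) tumors stand left and control (Ctl.) tumors right of the vertical line, red is above and blue below the mean of the gene, and tumor 4 of each group is blue for most genes, with Tigit and Tcf7 near 0.

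Of the 10 genes, all but Lag3 were on average lower in the 3 tumors with high Rn45s shares, some of them slightly. The mean log2 CPM of the other 5 tumors minus that of these 3 had a median of 0.90 over the 10 genes, against 0.03 over all genes tested. It was 2.87 for Slamf6, 1.90 for Ctla4, 1.42 for Havcr2 and 1.14 for Entpd1. For Lag3, Tigit and Tcf7 it was -0.01, 0.16 and 0.25. Cd3e, Ptprc and Foxp3 differed the same way, by 1.10, 1.00 and 0.95. Cd3g, Cd8a and Cd4 did so by 1.57, 0.74 and 0.55, but Cd3d, a chain of the same complex as Cd3e, by only 0.18. The 3 tumors were not alike in this. Control tumor 2, with the highest Rn45s share, had the highest Cd8a (5.78 CPM) and Cd3d (4.28 CPM) of the 8 tumors. Its Cd3e, at 3.00 CPM, was above that of photoconverted tumor 1, at 2.60 CPM. Its Ptprc, at 91.0 CPM, was below the other 5 tumors. The part of the Rn45s share in these values was not tested, since the tumors with high and low shares also differ in depth and in leukocyte genes.

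Expressed relative to Cd3e, 1 chain of the T cell receptor complex, Ctla4 was the 1 gene of the 10 whose groups did not overlap. Of all genes, 0.166% were higher in this way. There were 2.38, 1.96, 2.56 and 2.07 Ctla4 counts per Cd3e count with photoconversion, by replicate number, and 1.27, 0.357, 0.902 and 1.22 in the controls. All 4 photoconverted ratios lay above all 4 control ratios. Counting error was wide in the shallow tumors, where the 95% Clopper-Pearson intervals were 1.06 to 4.24 in photoconverted tumor 4 and 0.460 to 3.34 in control tumor 4. The log2 ratios, with 0.5 added to both counts, averaged 1.15 ± 0.18 and -0.24 ± 0.83 (SD, n = 4 each) and differed by 1.39. The exact permutation test gave p = 0.0286, the smallest it can give, unadjusted for the 10 genes examined. In the edgeR fit with libraries scaled to Cd3e the log2 fold change of Ctla4 was 1.27 with a standard error of 0.80 (adjusted p = 1.00), and 0 of the 10 genes and 0.0% of all genes were called, with 0 of the 10 and 46 of all genes at an unadjusted p under 0.05. Under the replicate block edgeR called 15 genes relative to Cd3e and none of the 10, with Ctla4 at a log2 fold change of 1.39 (unadjusted p = 0.00838). Scaling to Cd3e moved the median log2 fold change of all genes to -0.26 and that of the 10 to 0.16. Without control tumor 4 the fit called 33 genes and none of the 10, and the medians were 0.78 for all genes and 0.79 for the 10, so that the 10 no longer lay above all genes.

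**Figure D4:**
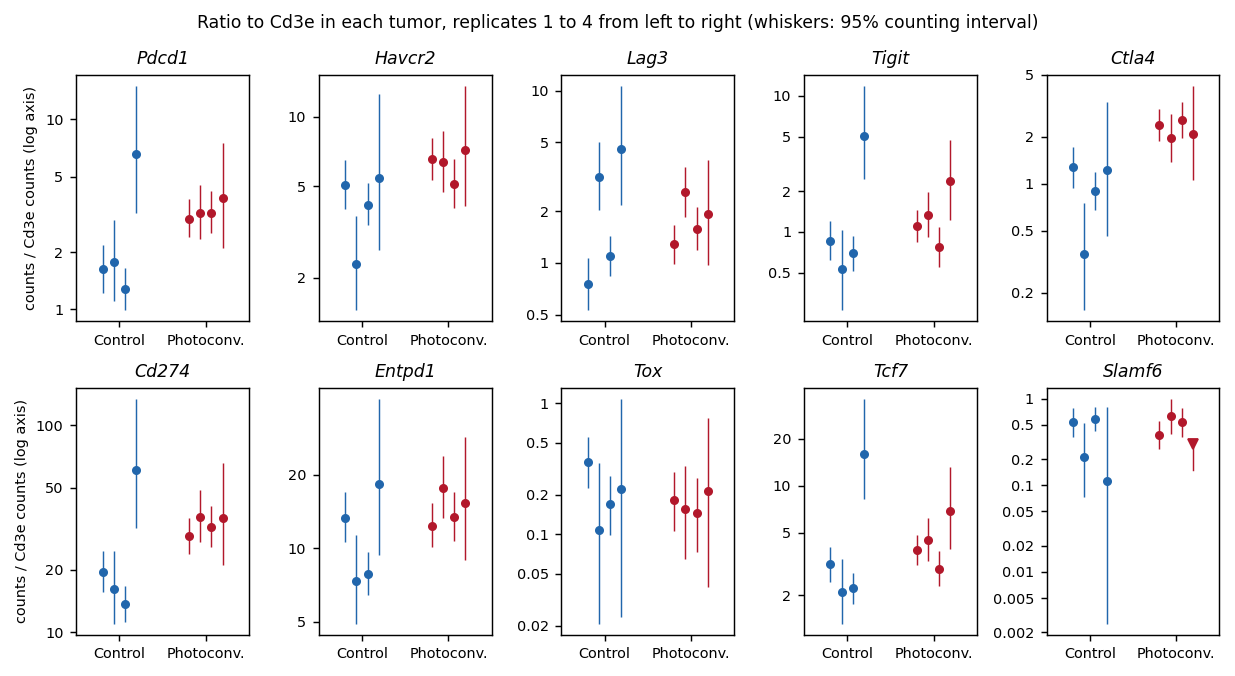
Counts of each gene per Cd3e count in control (blue) and photoconverted (red) tumors, on a log axis per gene, with replicates 1 to 4 from left to right and 95% counting intervals as whiskers. The triangle marks the upper bound for Slamf6 in photoconverted tumor 4, which had 0 counts, and the Ctla4 panel is the one without overlap of the points.

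Ctla4 was also set against other T cell and leukocyte genes. Over the summed counts of Cd3d, Cd3e and Cd3g, over Cd8a, the CD8 alpha chain of cytotoxic T cells, and over Ptprc, the pan-leukocyte gene that encodes CD45, the groups again did not overlap, with log2 differences of 1.25, 1.27 and 1.19. Of all genes, 0.118%, 0.0622% and 0.228% were higher without overlap over these denominators. The groups did overlap over Cd3d alone and over Cd3g alone. Photoconverted tumor 4 had 29 Ctla4 counts to 40 of Cd3d, against 103 to 99 and 101 to 95 in control tumors 1 and 3. Control tumor 4 had 11 Ctla4 counts to only 5 of Cd3g, against 210 to 107 in photoconverted tumor 3. Over Foxp3, the transcription factor of regulatory T cells and a denominator chosen after the other values were seen, the log2 difference was 1.02 and the groups overlapped (exact permutation p = 0.0857). Over it, 0.0829% of all genes were without overlap in either direction. Foxp3 itself averaged 2.61 ± 0.807 CPM with and 2.35 ± 1.36 CPM without photoconversion (SD, n = 4 each). The denominators share the tumors and the Ctla4 counts, so these ratios are not independent of each other.

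**Figure D5:**
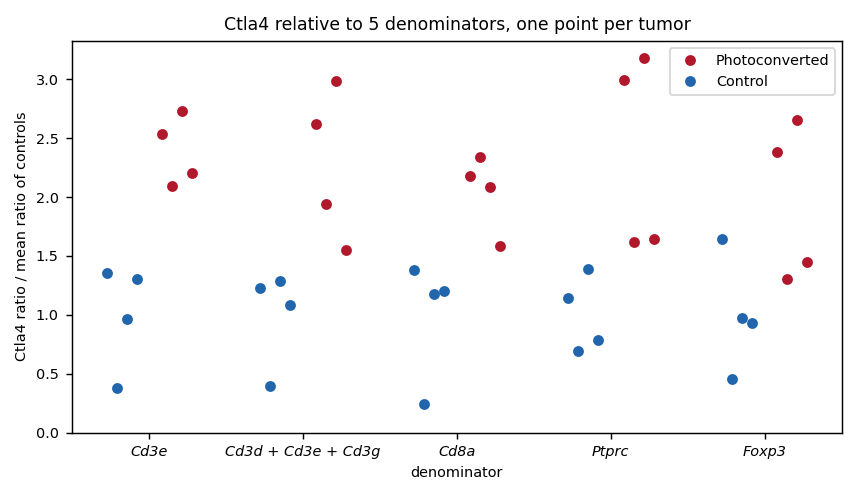
Ctla4 counts divided by the counts of 5 denominators in each tumor, scaled so that the control mean is 1 on a linear axis from 0, with 1 point per tumor. Photoconverted (red) and control (blue) points are apart for 4 denominators and overlap for Foxp3.

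The other 9 genes overlapped between the groups relative to Cd3e. Havcr2 came closest, at 6.55, 6.35, 5.12 and 7.21 Havcr2 counts per Cd3e count in photoconverted and 5.05, 2.29, 4.16 and 5.44 in control tumors. Only photoconverted tumor 3 lay below control tumor 4, and the exact permutation test of the log2 difference of 0.64 gave p = 0.0571. For Pdcd1 the ratios were 3.01, 3.22, 3.23 and 3.86 in photoconverted and 1.63, 1.79, 1.28 and 6.56 in control tumors, and for Cd274 they were 29.1, 36.0, 32.3 and 35.8 against 19.5, 16.1, 13.7 and 60.9. In both genes the photoconverted tumors lay close together and above control tumors 1 to 3, whereas control tumor 4, with its 9 Cd3e counts, was the highest of all. Without control tumor 4, a choice made after the values were seen, 4 of the 10 genes did not overlap and were higher in photoconverted tumors, namely Pdcd1, Havcr2, Ctla4 and Cd274, against 4.47% of all genes. The log2 differences of the remaining 6 genes over all 8 tumors were between -0.34 for Slamf6 and 0.43 for Entpd1, with exact permutation p-values from 0.286 for Entpd1 to 0.943 for Lag3. The edgeR fit relative to Cd3e gave the other sign for 3 of these 6, with -0.32 for Tigit against 0.18 for the mean log2 ratio, -0.35 for Tcf7 against 0.16, and 0.05 for Slamf6 against -0.34.

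Over all 8 tumors, dividing by Cd3e narrowed the spread for 5 of the 10 genes and widened it for the other 5. The standard deviation of the log2 value over the 8 tumors went from 0.86 to 0.52 for Havcr2, from 0.69 to 0.48 for Entpd1, from 0.73 to 0.50 for Tox, from 1.16 to 0.93 for Ctla4 and from 1.77 to 1.44 for Slamf6. It went from 0.25 to 0.94 for Tcf7 and from 0.28 to 1.04 for Tigit, and widened less for Pdcd1, Cd274 and Lag3. Control tumor 4 made most of the narrowing for Havcr2 and Entpd1, whose spread without it went from 0.57 to 0.56 and from 0.49 to 0.47. Without control tumor 4 the Tcf7 and Tigit ratios still varied more than their CPM, with 0.59 and 0.69 against 0.26 and 0.28, whereas for Ctla4 the ratio then varied no less than the CPM, with 1.00 against 0.95.

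Set per kilobase of merged exon length (GENCODE M21, GRCm38), the median level over the 8 tumors was 14.2 CPM per kb for Cd274, 5.30 for Entpd1, 4.03 for Havcr2, 3.06 for Tcf7, 2.66 for Pdcd1, 2.60 for Tigit, 1.77 for Lag3, 1.31 for Ctla4, 0.0928 for Slamf6 and 0.0522 for Tox. Cd3e stood at 0.602 on this scale. The lengths merge the exons of all annotated transcripts of a gene, from 919 bases for Tigit to 10832 for Slamf6, with 7609 for Tox and 4080 for Cd3e. The order therefore depends on these lengths, and which transcripts the tumors used was not tested. Cd274 was above Entpd1, and Ctla4 above Slamf6, in all 8 tumors. Pdcd1 was above Tigit in only 4 of 8 and Tcf7 above Pdcd1 in 5 of 8, so these neighbors in the order did not differ beyond their spread, nor did Lag3 and Ctla4, which were in that order in 5 of 8. Pdcd1 lies on chromosome 1 at 94038305 to 94052553 on the minus strand, Ctla4 on chromosome 1 at 60887000 to 60915832 on the plus strand and Cd274 on chromosome 19 at 29367455 to 29388095 on the plus strand. Also on chromosome 1 is Slamf6 (171917515 to 171953170, plus strand), chromosome 19 also holds Entpd1 (40612366 to 40741602, plus strand), and chromosome 11 holds Havcr2 (46454935 to 46481255, plus strand) and Tcf7 (52252371 to 52283014, minus strand). Tox is on chromosome 4 (6686353 to 6991557), Lag3 on chromosome 6 (124904361 to 124911705) and Tigit on chromosome 16 (43648867 to 43664146), all on the minus strand. Exons of Cd274 overlap those of AC119228.1 exons of Tox those of Gm11802, and exons of Cd3e, the denominator of the ratios, those of Gm48719, each on the opposite strand, and whether the counting used strand is not given in the sources used here. The RefSeq start of Ctla4 lies inside its GENCODE gene, whose first exon is farther upstream.

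By Pearson's r of log2 CPM over the 8 tumors, given as a description since the tumors share depth and Rn45s differences, Cd274 was among the 3 genes most like Pdcd1 (r = 0.97), beside Nmnat2 and the immediate early gene Fos. The genes most like Cd274 included Tnfaip3, an NF-kappaB target, and Igtp, an interferon-induced GTPase, both at 0.97. Havcr2 was most like Cysltr2, the NK and CD8 T cell receptor gene Klrc1 and the T cell adhesion gene Cd2 (0.98 to 0.99). Ctla4 was most like Gpr18, Ugcg and the ATP receptor gene P2rx7 (0.98 to 0.99), Entpd1 was most like AB124611, Gm8989 and the ubiquitin ligase gene Cblb, and Slamf6 most like Vnn3, Cadm1 and the NK receptor gene Klre1. Lag3 was most like Gja5, Dsc2 and Tapbpl (0.94 to 0.96), and Tigit most like Sall1, Atxn2 and Smg8 (0.96 to 0.97). For Tox these were Rabgap1l, Lrch3 and Apc (0.99 each), and for Tcf7 Smpdl3b, Tubg2 and Sall1 (0.95 to 0.96). Each r is the highest picked from all genes tested over only 8 tumors. Cd3e correlated with Slamf6, Entpd1 and Havcr2 at 0.88, 0.88 and 0.84, with Tcf7 at 0.18 and with Tigit at -0.16.

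Other genes of the checkpoint pathways were not called either. Of 11 other inhibitory receptor genes tested, 7 were higher and 4 lower, with a median log2 fold change of 0.08 and 0 at an unadjusted p under 0.05 in edgeR. Of 16 ligand genes 9 were higher and 7 lower (median 0.11), among them Pdcd1lg2, which encodes PD-L2, at 3.13 ± 1.24 CPM with and 2.36 ± 0.847 CPM without photoconversion (SD, n = 4 each). Of 7 costimulatory receptor genes 4 were higher and 3 lower, and Tnfrsf9, which encodes 4-1BB, had a log2 fold change of -0.29 (unadjusted p = 0.0476 and adjusted p = 0.999 in edgeR). Among 14 transcription factor genes of exhaustion and effector function 10 were higher and 4 lower (median 0.16), and Nr4a1, an immediate early gene of T cell receptor signaling that many other cells also use, had a log2 fold change of 0.60 (unadjusted p = 0.0247 and adjusted p = 0.999 in edgeR). Naive, memory and stem-like genes split 7 to 5 (median 0.02).

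Of 8 other genes of extracellular nucleotide breakdown and of adenosine handling and sensing, 7 were higher, with a median log2 fold change of 0.18. Entpd3, which encodes another ectoenzyme that hydrolyses ATP and ADP, had a log2 fold change of 0.98 and the adenosine receptor gene Adora2b one of 0.84, at unadjusted p-values of 0.0219 and 0.0352 in edgeR. Nt5e, which encodes CD73, the enzyme that turns AMP into adenosine, averaged 7.45 ± 2.13 CPM with and 5.45 ± 1.19 CPM without photoconversion (SD, n = 4 each). Of 8 effector genes 7 were higher (median 0.25), with the granule protease gene Gzmb at 63.8 ± 32.5 and 34.0 ± 12.9 CPM (SD, n = 4 each; unadjusted p = 0.0463 in edgeR). Of 11 interferon gamma targets 8 were higher (median 0.17), and of these Cxcl10 had an unadjusted p under 0.05, whereas Irf1, at 222 ± 56.8 and 202 ± 30.5 CPM (SD, n = 4 each), differed by less than the spread between tumors. No gene of these lists passed the adjusted threshold.

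The markers of cells that could carry the members were measured beside them. The 14 T cell lineage genes split 7 to 7 with a median log2 fold change of -0.01, and 5 regulatory T cell markers split 3 to 2 with a median of 0.06 and a summed CPM of 47.6 to 100.03 in photoconverted and 45.3 to 100.7 in control tumors. Of 5 NK cell markers 4 were lower (median -0.18, summed CPM 11.3 to 28.8 and 6.96 to 35.5), and of 9 macrophage and dendritic cell markers 6 were lower (median -0.11, summed CPM 256 to 639 and 184 to 576). All 6 endothelial markers were higher (median 0.21, summed CPM 89.9 to 175.0 and 81.5 to 138.8). The 3 B cell markers tested had a median of -0.13, and Ms4a1 was too low to be tested. All 4 neutrophil markers tested were higher, with a median of 2.04, an unadjusted p under 0.05 each in edgeR and a summed CPM of 17.4 to 90.8 in photoconverted and 15.1 to 25.6 in control tumors. Ptprc was at 115 ± 33.8 and 112 ± 49.9 CPM (SD, n = 4 each). The part of these cell types in the levels of Cd274, Havcr2 and Entpd1, which are not restricted to T cells, was not tested. MC38 is an epithelial line, but the epithelial genes Epcam, Krt18 and Krt19 were too low to be tested and Krt8 was near 0.5 CPM.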

How the data were processed

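Bulk RNA-seq of 8 MC38 tumors was analysed, 4 photoconverted and 4 control. The deposited tables hold raw counts for each gene symbol, not normalized by the authors, and normalized signal values, which equaled those counts divided by 1 size factor per tumor and left out genes with at most 1 count in all. The submitters' processing notes list CASAVA, FastQC, Trim Galore, HISAT2, featureCounts, DESeq2 and mm10. Versions, annotation and strand setting are not given in the sources used here. Different stranded total RNA kits are named, SMARTER in the labels and TruSeq in the methods of the paper. Groups and replicate numbers came from the sample titles, and columns were matched by the letter in the sample description.

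Raw counts were tested with edgeR 4.0.16 in R 4.3.3 (TMM, filterByExpr by group, quasi-likelihood test, Benjamini-Hochberg over all genes tested, threshold 0.05). For levels relative to Cd3e, each library was scaled to its Cd3e count in the same test. For single values, exact permutation tests (two-sided, 70 arrangements, unadjusted) were used. CPM used the TMM factors, and log2 CPM a prior count of 2. DESeq2 1.42.0 and limma 3.58.1 served as alternatives, beside other normalizations and filters, a replicate block, an Rn45s covariate, and fits without each tumor in turn. Same-numbered tumors deviated together from their group means (r = 0.60, 0.11, 0.41 and 0.62 across genes), and the numbers, which come from the labels, were taken to pair the tumors because each r was over 0.1. Differently numbered tumors had r from -0.60 to 0.48, and some of them correlated as strongly as same-numbered ones. No 2 libraries of a group agreed within sampling noise (smallest chi-square per degree of freedom 23.8). Each group held 4 mice, and whether same-numbered tumors shared a day or batch is not given in the sources used here. Intervals and floors cover counting error only, and total counts between 12576615 and 35844417 limit the precision of Cd3e, Tox and Slamf6. The scripts were tested on simulated data, in which 200 of 14468 genes were changed 4-fold. There edgeR recovered 173 with 8 false calls, limma 170 with 10 and DESeq2 182 with 49. Relative to Cd3e, edgeR recovered only 55, with 6 false calls, so calls on that scale had low power.

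The genes named were the 10 members and Cd3e, up to 3 genes with the smallest unadjusted p of each further list, Cd8a, Cd4, Foxp3, Pdcd1lg2, Ptprc and Irf1, and the 3 genes most like each member. Members and lists were chosen with earlier results of these data known. Overlap of groups with a tumor left out, Foxp3 as a denominator and Cd3d or Cd3g alone as a denominator were added after the values were seen. Of the further lists, Pvrig and Ly6g were not in the table, and Vtcn1, Cd40lg, Tox2, Cxcr5, Gzmk and Xcr1 were too low to be tested. Some items that were examined are not reported here.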

Additional observations from a re-analysis of the deposited data

Results flagged for a closer look

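Control tumor 4 stood apart from the other controls in the ratio to Cd3e of 4 members, by a gap to its nearest neighbor above Dixon's 95% limit for 4 samples. Its ratio was 6.56 for Pdcd1, where the next highest control was at 1.79, and 60.9 for Cd274, where the next was at 19.5. For Tigit it was 5.11, against 0.864, and for Tcf7 it was 16.0, against 3.15. Of 42 groups of 4 values examined 4 stood out in this way, where chance gives about 1 in 20, or 2.1. All 4 flags share 1 denominator, the 9 Cd3e counts of control tumor 4.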

How the results depend on the processing

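The count of members called was 0 under every alternative, both between the groups and relative to Cd3e. Over all genes the count of 0 became 24 with DESeq2's Wald test and 42 with the 5 tumors of low Rn45s share, and ranged from 0 to 11 when 1 tumor was left out, with 11 without photoconverted tumor 4. The cause was not tested. The replicate block moved no member or gene past the adjusted threshold between the groups and changed no call other than those at an unadjusted p, with log2 fold changes of 1.29 for Ctla4 and 0.56 for Pdcd1 (unadjusted p = 0.0524 in edgeR). Relative to Cd3e it called 15 genes, none of them a member. Between the groups, 7 members kept the direction of their log2 fold change under all alternatives, which Lag3, Tigit and Slamf6 did not, but it came down to 0.0018 for Tcf7 (without photoconverted tumor 1), 0.08 for Entpd1 (without control tumor 4) and 0.05 for Havcr2 (with the 5 tumors). Lag3 became 0.46 with the 5 tumors. With 1 tumor left out the log2 fold change ranged from -0.56 to 0.33 for Lag3, -0.036 to 0.19 for Tigit and -0.65 to 0.47 for Slamf6. Members without overlap in CPM numbered 3 of 10 with the 5 tumors (Pdcd1 and Cd274 higher, Tox lower), where 28.4% of all genes did not overlap, and 0 to 1 with 1 tumor left out (1.88% to 6.63% of all genes). Relative to Cd3e they numbered 5 with the 5 tumors (Pdcd1, Havcr2, Lag3, Ctla4 and Cd274, against 8.5% of all genes), 1 to 4 with 1 tumor left out (0.194% to 4.47% of all genes), and 0 over Foxp3 (0.0829% of all genes). In edgeR relative to Cd3e, the log2 fold change of Tcf7 went from -0.35 to 0.86 without control tumor 4, and that of Tox from -0.34 to 0.11 without control tumor 1. In the ratios, Tigit turned to -0.013 over Ptprc and -0.19 over Foxp3, and Tcf7 to -0.032 and -0.21. Low counts limit Tox, Slamf6 and the ratios to Cd3e.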
